A study of Homo sapiens with 10 samples.

Results

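The genes described here were 10 genes of the CTCF and cohesin system, namely CTCF, CTCFL, RAD21, SMC1A, SMC3, STAG1, STAG2, NIPBL, PDS5A and PDS5B. They were picked by gene symbol from the deposited count tables, and each had 1 row among the 26256 rows of the table of untreated cells and 1 row among the 55736 rows of the table of the Nutlin-3a experiment. MCF10A is an immortalized epithelial line from human breast that does not form tumors. G12V cells derive from it by lentiviral transfer of the HRas oncogene (genotype H-RAS Gv12), with hygromycin selection of the transduced cells. These 2 groups were untreated and had 2 libraries each. In the second experiment parental MCF10A cells received 10 µM Nutlin-3a, which frees p53 from its inhibitor MDM2, or the vehicle DMSO for 4 h, with 3 libraries each. All groups grew in medium with EGF, insulin, hydrocortisone and cholera toxin, and poly(A) RNA was sequenced. G12V cells were thus compared with parental cells that had no matching transduction and selection in the labels, so the oncogene and the selection cannot be told apart.

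CTCF is a zinc finger protein that binds DNA at insulators and at the borders of chromatin domains. Cohesin is a ring of SMC1A, SMC3 and RAD21 that holds sister chromatids together and that extrudes loops of chromatin until it meets CTCF. A STAG subunit, either STAG1 or STAG2, completes the ring complex, NIPBL stimulates its loading and its extrusion of loops, and PDS5A or PDS5B binds the ring and takes part in both its release from chromatin and its protection.

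The libraries held 21538593 to 23683975 counts in the untreated cells and 15453226 to 17378734 in the Nutlin-3a experiment. In G12V cells HRAS rose from 69.3 to 573 CPM (counts scaled to a common library size, means, n = 2 each), by 3.05 on the log2 scale (adjusted p = 0.00165 by edgeR), and MDM2, CDKN1A, BTG2 and GDF15, which p53 activates, all rose after Nutlin-3a, by 2.16 to 2.85 on the log2 scale. Of 6 epithelial markers, 4 fell past the thresholds given below in G12V cells (KRT5, KRT14, EPCAM and CDH1). KRT8 and KRT18 stayed expressed. KRT8 had means of 195 CPM in MCF10A and 222 in G12V cells (log2 fold change 0.18). KRT18 had 334 and 204 CPM (-0.71, adjusted p = 0.0684 by edgeR). The summed level of the 6 was 4902 to 5905 CPM in MCF10A and 1361 to 1661 CPM in G12V libraries. Most of it was KRT5, with means of 4195 and 1078 CPM. KRT14 had 2 to 3 reads and CDH1 10 to 12 reads in G12V libraries, so these defining markers were close to absent there. Summed stromal markers were at most 12.04 CPM in any library, and of the 2 immune markers PTPRC, common to leukocytes, had at most 1 read, while CD14 had 396 to 888 reads in the untreated libraries and 34 to 125 in the Nutlin-3a experiment, with no call in either comparison. Whether the shift in epithelial markers bears on the values of the CTCF and cohesin genes was not tested, and in bulk RNA fewer cells of a type and less RNA per cell cannot be told apart.

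The CTCF and cohesin genes differed widely in RNA level, from RAD21 at the top to CTCFL near 0. Levels were compared between genes as CPM per kb of the MANE Select transcript. RAD21, the kleisin that closes the ring (chr8:117858173-117887105 in hg19), stood highest in every group, at 144 ± 7.92 CPM per kb in MCF10A (SD, n = 2), 115 ± 1.69 in G12V (SD, n = 2), 103 ± 9.69 in DMSO (SD, n = 3) and 88.1 ± 18.6 in Nutlin-3a libraries (SD, n = 3). Its level per kb was 2.20 to 3.97 times that of the next member in each of the 10 libraries, and RAD21 held 21.6% to 35.6% of all counts of the 10 genes. PDS5A (chr4:39824483-39979576) came second in every group, with means of 33.4 to 38.3 CPM per kb. This rank depends on the length used. PDS5A has 7.13 kb of transcript and 4.01 kb of coding sequence, and SMC1A has 9.71 and 3.70 kb. In mean CPM, not divided by length, SMC1A exceeded PDS5A after DMSO (273 against 238) and Nutlin-3a (283 against 239). It did not in MCF10A (223 against 273) or G12V cells (226 against 263).

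Below these lay SMC1A (chrX:53401070-53449677), STAG2 (chrX:123094410-123236505), SMC3 (chr10:112327449-112364392) and CTCF (chr16:67596310-67673088), whose means were between 18.0 and 29.1 CPM per kb in the 4 groups. In MCF10A the order was STAG2 at 25.04, SMC1A at 22.9, SMC3 at 20.4 and CTCF at 20.3 CPM per kb, and neighbours in this order overlapped in their ranges over the libraries. NIPBL (chr5:36876861-37065921) and STAG1 (chr3:136055999-136471245) formed the next step, at 10.2 and 9.42 CPM per kb in MCF10A, and their ranges overlapped in all 4 groups. PDS5B (chr13:33160564-33352158) was lower, at 6.89 CPM per kb in MCF10A. The lowest of all was CTCFL (chr20:56071021-56100183), which encodes BORIS, the paralog of CTCF known from the male germ line, at 0.154 CPM per kb in MCF10A and 0.113 in G12V cells. In the plot of levels per kb the group means fell in the same steps in both experiments, but the steps were less apart in the Nutlin-3a experiment. There the ranges of PDS5A and SMC1A overlapped in both groups, and those of NIPBL and PDS5B overlapped in DMSO libraries.

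**Figure D1:**
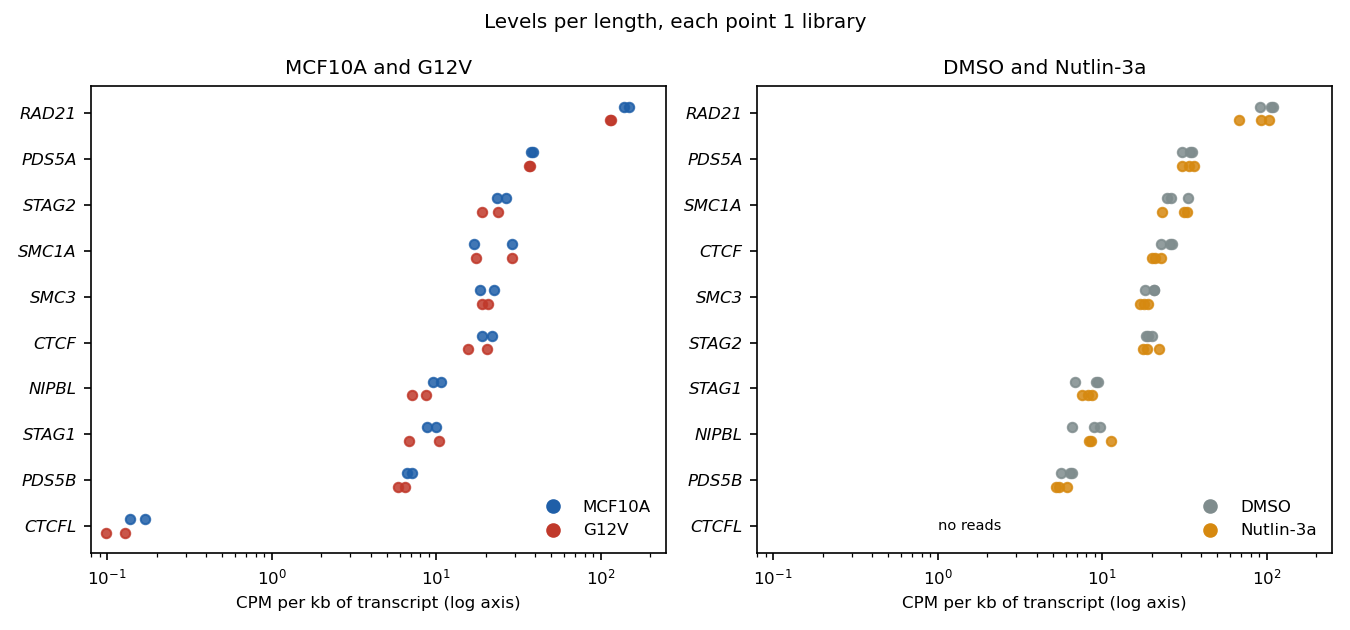
Levels of the 10 genes in CPM per kb of the MANE Select transcript on a log axis, each point 1 library, with MCF10A and G12V on the left and DMSO and Nutlin-3a on the right. RAD21 lies at 67.6 to 149 CPM per kb and CTCFL at 0.0977 to 0.169 in the untreated libraries, and CTCFL had no reads in the Nutlin-3a experiment.

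CTCFL is described by its reads, because it had so few. The 2 MCF10A libraries held 13 and 11 reads, with exact Poisson 95% intervals of 6.92 to 22.2 and 5.49 to 19.7 reads. The G12V libraries held 8 and 10 reads, with intervals of 3.45 to 15.8 and 4.80 to 18.4. None of the 6 libraries of the Nutlin-3a experiment held a CTCFL read. The exact Poisson 95% interval of a count of 0 is 0 to 3.69 reads. A floor of 3 counts equals 0.166 to 0.197 CPM in a library of that depth. These intervals and floors leave out all but counting error, because the reads carry no molecular identifiers and 1 molecule can give several. The tables use different annotations and were normalized separately, so the levels of the untreated and of the Nutlin-3a libraries were not tested against each other.

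The letters just upstream of CTCF and CTCFL are shown because 1 paralog was read deeply in every library and the other barely or not at all. Those of SMC3 and PDS5B are shown for their pattern over the libraries of the Nutlin-3a experiment. It was most like that of CTCF among the other CTCF and cohesin genes (described further on). The sequences are the 250 bases before an annotated RefSeq start, on GRCh38.p14 and on the strand of the gene, with CG dinucleotides in capitals. CTCF is chr16:67562276-67562525 (+), CTCFL is the start farthest upstream of its 3 entries, chr20:57525653-57525902 (-), SMC3 is chr10:110567445-110567694 (+) and PDS5B is chr13:32586202-32586451 (+).
CTCF: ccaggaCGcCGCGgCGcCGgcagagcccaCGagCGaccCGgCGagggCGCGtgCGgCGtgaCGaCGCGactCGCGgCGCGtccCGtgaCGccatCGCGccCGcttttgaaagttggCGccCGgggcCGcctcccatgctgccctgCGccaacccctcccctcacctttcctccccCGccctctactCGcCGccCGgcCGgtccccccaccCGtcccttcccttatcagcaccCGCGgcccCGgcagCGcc
CTCFL: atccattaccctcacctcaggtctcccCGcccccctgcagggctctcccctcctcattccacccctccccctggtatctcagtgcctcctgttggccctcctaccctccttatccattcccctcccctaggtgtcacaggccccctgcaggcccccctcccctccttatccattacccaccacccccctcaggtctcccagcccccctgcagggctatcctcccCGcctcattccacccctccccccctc
SMC3: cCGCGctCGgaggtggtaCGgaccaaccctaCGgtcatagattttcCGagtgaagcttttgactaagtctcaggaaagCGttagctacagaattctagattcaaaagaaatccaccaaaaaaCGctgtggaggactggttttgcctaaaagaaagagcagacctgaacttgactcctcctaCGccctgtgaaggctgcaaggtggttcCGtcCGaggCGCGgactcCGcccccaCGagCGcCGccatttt
PDS5B: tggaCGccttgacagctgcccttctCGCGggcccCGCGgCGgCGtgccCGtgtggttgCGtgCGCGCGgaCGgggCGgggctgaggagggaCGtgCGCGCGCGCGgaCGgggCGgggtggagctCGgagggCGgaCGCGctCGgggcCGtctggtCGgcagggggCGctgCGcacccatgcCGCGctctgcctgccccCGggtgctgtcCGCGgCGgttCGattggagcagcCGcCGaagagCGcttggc

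CTCF held 39 CG dinucleotides in this window, more than 97.3% of the 35116 promoter entries, whose median was 11. PDS5B held 41, more than 98.3% of entries, and SMC3 held 17, more than 61.0%. The 3 entries of CTCFL held 15, 7 and 2. The entry shown is that with 2, and the entry with 15 lay above the median. Of the 14 entries read for 9 of the genes (RAD21 was left out), 12 lay above the median. The letters TTTGAA, on either strand, a run found at cell cycle genes, occurred upstream of CTCF and SMC3 and in 13.3% of all entries. One of the E2F-type runs TTTCCCGC, TTTCGCGC, TTTGCCGC and TTTGGCGC, on either strand, occurred in 1 entry each of SMC1A, STAG1, STAG2 and NIPBL and in 2.79% of all entries. A complete p53 response element was in none of the 14 entries and in 0.0256% of all entries.

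The first comparison asked whether RNA of the CTCF and cohesin genes differed once the oncogene was present. No member changed between MCF10A and G12V cells under the study's thresholds (adjusted p below 0.05, and a log2 fold change beyond 0.5 in either direction). On average 9 of 10 were lower in G12V cells, with a median log2 fold change of -0.17 against -0.0011 over all 14376 genes tested, and SMC1A stood at 0.02. The lowest members by fold were CTCFL at -0.44, NIPBL at -0.36 and RAD21 at -0.32. By the size of the change in either direction the members had a median of 0.17 and all tested genes of 0.36.

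The count of called members was 0 of 10, where 5.01% of all tested genes were called higher and 5.95% lower. Without adjustment 0 of 10 had p under 0.05, against 25.6% of all tested genes. DESeq2, edgeR's exact test and a fit blocked on the replicate number called 0 members too. Of all 14376 tested genes they called 2307, 2536 and 4158, in that order. No member passed a log2 fold change of 0.5 in these fits, so none could be called whatever its p. Libraries of the groups did not overlap in 5 members, all lower in G12V cells (CTCFL, RAD21, NIPBL, PDS5A and PDS5B), and 27.4% of all tested genes were lower without overlap. The p-values measure only the spread between these libraries. A missed threshold does not show that levels were alike, and the 95% interval of the fold lay within 1.5-fold either way for 2 members (SMC3 and PDS5A) and within 2-fold for 9, all but CTCFL.

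CTCF had 83.2 and 72.0 CPM in the MCF10A libraries and 78.1 and 59.5 CPM in the G12V libraries. The groups overlapped, since the higher G12V library lay between the MCF10A libraries. The log2 fold change was -0.17 (SE 0.21, 95% interval -0.68 to 0.33, adjusted p = 0.681). CTCFL had a log2 fold change of -0.44 with an interval of -1.60 to 0.72, which 8 to 13 reads a library could not narrow.

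Among the ring subunits, RAD21 had 505 and 546 CPM in MCF10A and 416 and 425 CPM in G12V libraries. Both G12V libraries lay below both MCF10A libraries, and the log2 fold change was -0.32 (SE 0.20, 95% interval -0.82 to 0.17, adjusted p = 0.398). The row of RAD21 overlaps the antisense gene RAD21-AS1, which had 4 to 18 reads in these libraries, against at least 9519 for RAD21. SMC1A, one of the ATPase arms of the ring, had 279.7 and 166 CPM in MCF10A and 281 and 171 CPM in G12V libraries. The spread lay between replicates, since replicate 1 exceeded replicate 2 by 1.69-fold in MCF10A and by 1.65-fold in G12V cells, and the log2 fold change between groups was 0.02 (95% interval -0.83 to 0.87). In MCF10A 8.03% of the 9544 genes of at least 10 CPM had a spread as large as that of SMC1A, and in G12V cells 11.1% of 9548 did. SMC3, the partner of SMC1A, had 124 and 102 CPM in MCF10A and 115 and 105 CPM in G12V libraries, so that the G12V libraries lay between the MCF10A libraries, with a log2 fold change of -0.04 (95% interval -0.49 to 0.42).

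The STAG subunits bring cohesin to CTCF and take turns in the complex. STAG1 had 60.5 and 53.7 CPM in MCF10A and 63.4 and 41.7 CPM in G12V libraries. The G12V libraries lay on either side of the MCF10A libraries, and the log2 fold change was -0.12 (95% interval -0.73 to 0.48). STAG2 had 144 and 165 CPM in MCF10A and 118 and 147 CPM in G12V libraries, which overlapped narrowly, and its log2 fold change was -0.23 (95% interval -0.72 to 0.26).

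NIPBL, the loader, had the second largest log2 fold change of the 10 and the smallest adjusted p. It had 99.9 and 112 CPM in MCF10A and 74.1 and 90.8 CPM in G12V libraries, without overlap. The log2 fold change was -0.36 (SE 0.19, 95% interval -0.82 to 0.10, adjusted p = 0.308). In the fit blocked on the replicate number the adjusted p was 0.0523, still above the threshold.

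The PDS5 proteins regulate cohesin already on chromatin. PDS5A had 278 and 268 CPM in MCF10A and 260.2 and 266 CPM in G12V libraries, with a log2 fold change of -0.05 (95% interval -0.50 to 0.40). PDS5B had 53.04 and 49.9 CPM in MCF10A and 48.2 and 43.7 CPM in G12V libraries, with a log2 fold change of -0.16 (95% interval -0.61 to 0.28). For both genes the G12V libraries were below the MCF10A libraries, by a gap smaller than the difference between replicates.

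**Figure D2:**
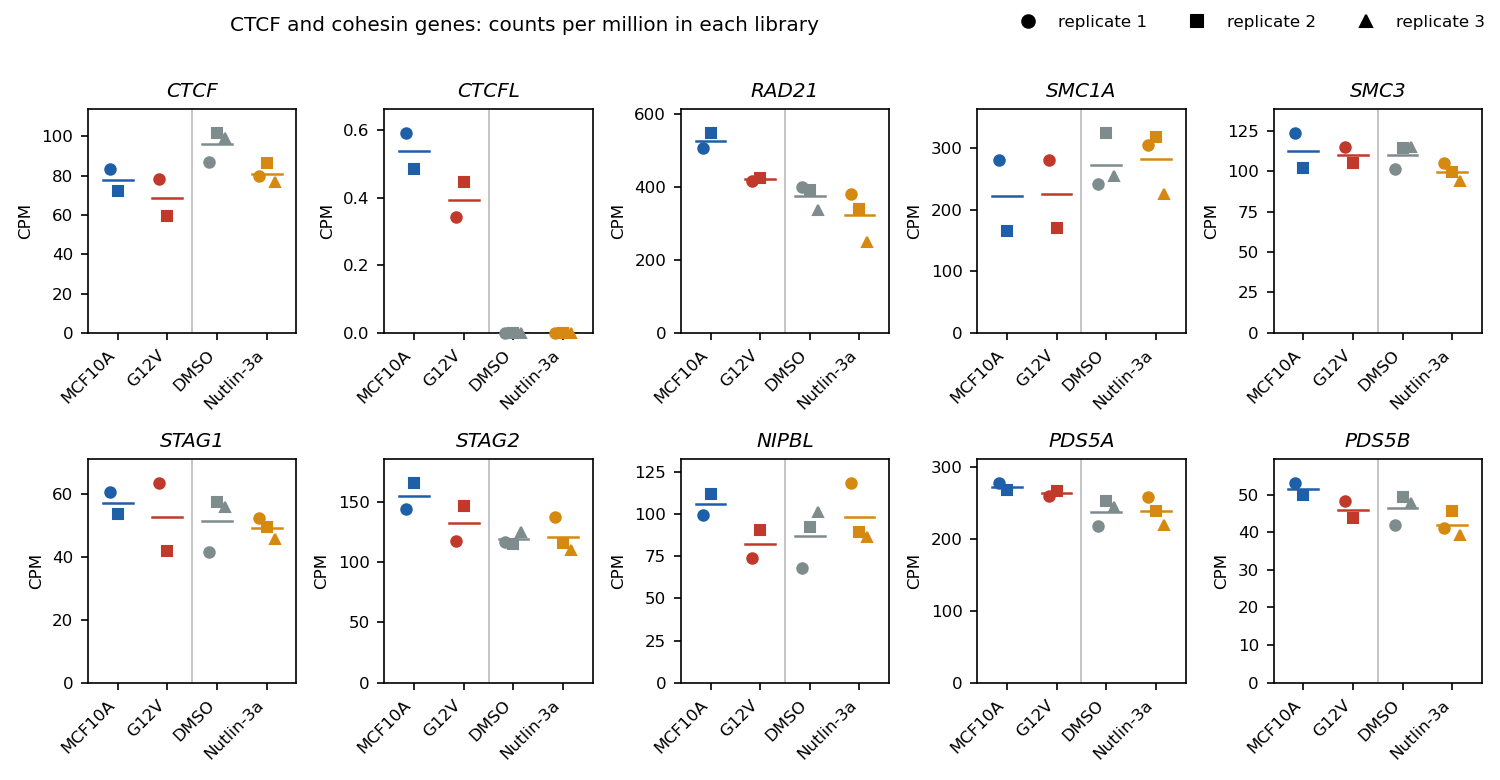
CPM of each gene in every library, with circles, squares and triangles for replicates 1, 2 and 3, a line at each group's mean, axes from 0, and a grey line between the experiments, whose tables were normalized separately. SMC1A differs between replicates of a group by up to 1.69-fold, and CTCF after Nutlin-3a lies at 76.7 to 86.6 CPM, below the DMSO libraries at 87.2 to 102 CPM.

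The second comparison asked what 4 h of Nutlin-3a did to the same genes in parental cells. No member passed the same thresholds here either. CTCF came closest to a change, at a mean of 81.0 ± 5.12 CPM after Nutlin-3a and 95.9 ± 7.68 CPM after DMSO (SD, n = 3 each), and it was the only member whose groups did not overlap. Of 9 members tested, 5 were lower on average and 4 higher, and the median log2 fold change was -0.06 against 0.0066 over all 13529 genes tested. By size in either direction the median was 0.14 for the members and 0.10 for all tested genes.

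The count of called members was 0 of 9, where 0.155% of all tested genes were called higher and 0.0148% lower. Without adjustment 1 of 9 (CTCF) had p under 0.05, against 3.42% of all tested genes. In the fit blocked on the replicate number, which pairs the libraries here, 1.22% of all tested genes and again 0 of 9 members were called, and DESeq2 and edgeR's exact test called 0 as well. CTCF was lower without overlap, as were 4.38% of all tested genes. The adjusted p was 0.9997 for each of the 9 members without the block. The 95% interval of the fold lay within 1.5-fold either way for 8 of 9 members, all but RAD21, and within 2-fold for all 9.

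CTCF had 87.2, 102 and 99.1 CPM in DMSO replicates 1 to 3 and 79.6, 86.6 and 76.7 CPM in the Nutlin-3a replicates of the same numbers. Each Nutlin-3a library was below its DMSO partner, by 0.13, 0.23 and 0.37 on the log2 scale. The log2 fold change was -0.24 (SE 0.11, 95% interval -0.49 to -0.0021), with an unadjusted p of 0.0484 from edgeR's quasi-likelihood test and an adjusted p of 0.208 with the block.

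RAD21 had 400.2, 391 and 335 CPM after DMSO and 380.2, 340.0 and 247 CPM after Nutlin-3a. It too was lower in each of the 3 pairs, but the groups overlapped and replicate 3 was the lowest in both. The log2 fold change was -0.22 (95% interval -0.60 to 0.16). In this table the row of RAD21 overlaps UTP23 on the other strand, which had 868 to 1326 reads where RAD21 had at least 3761, and how reads of overlapping genes were counted is not given in the sources used here.

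SMC1A had 242, 324 and 254 CPM after DMSO and 306, 318 and 225 CPM after Nutlin-3a, with a log2 fold change of 0.05 (95% interval -0.33 to 0.44). SMC3 had 101, 114 and 115 CPM after DMSO and 105, 99.4 and 94.0 CPM after Nutlin-3a, with a log2 fold change of -0.15 (95% interval -0.38 to 0.09). Both ATPases overlapped between the treatments, and each was lower in 2 of 3 pairs.

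STAG1 had 41.4, 57.2 and 55.7 CPM after DMSO and 52.4, 49.5 and 45.7 CPM after Nutlin-3a, with a log2 fold change of -0.06 (95% interval -0.39 to 0.26). PCCB on the other strand, with 647 to 855 reads, overlaps the row of STAG1, which had at least 695 reads. STAG2 had 117, 114 and 125 CPM after DMSO and 137, 116 and 109.7 CPM after Nutlin-3a, with a log2 fold change of 0.02 (95% interval -0.24 to 0.28), which turned to -0.0099 when libraries were scaled by their totals alone.

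NIPBL spread by 1.49-fold within DMSO and by 1.37-fold within Nutlin-3a libraries, at 68.0, 92.5 and 101 CPM after DMSO and 118, 89.5 and 86.7 CPM after Nutlin-3a. Replicate 1 was the lowest library of one treatment and the highest of the other, so that its pair differed by 0.80 on the log2 scale while the other pairs differed by -0.05 and -0.23. The log2 fold change was 0.17 (95% interval -0.24 to 0.58). The transcript of NIPBL is the longest of the 10 at 10.4 kb, and the median deviation of long genes, at least 5.21 kb, was -0.07 in DMSO replicate 1 and 0.10 in Nutlin-3a replicate 1 on the log2 scale; its part in the value of NIPBL was not tested.

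PDS5A had 218, 253 and 244 CPM after DMSO and 258, 239 and 219.6 CPM after Nutlin-3a. Its log2 fold change was 0.0055 (95% interval -0.25 to 0.26), which turned to -0.027 with library totals alone and to -0.0030 without the filter on low counts. PDS5B had 41.9, 49.3 and 47.7 CPM after DMSO and 41.1, 45.6 and 39.3 CPM after Nutlin-3a, with a log2 fold change of -0.14 (95% interval -0.40 to 0.12). PDS5B was lower in each of the 3 pairs, and its groups overlapped.

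**Figure D3:**
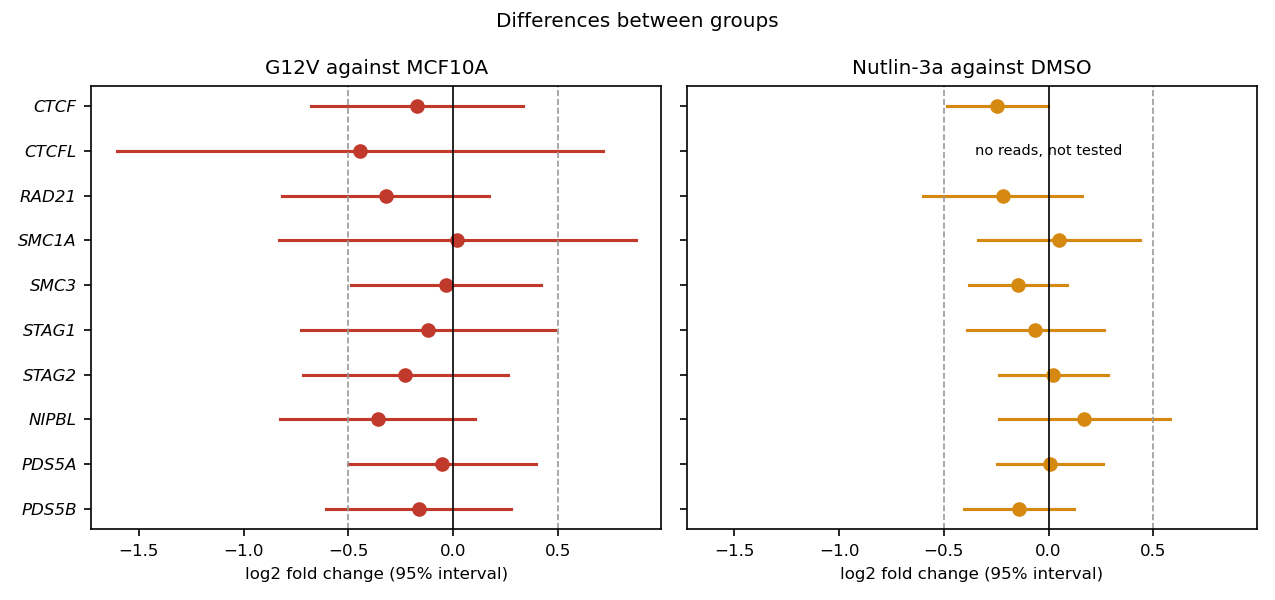
Log2 fold change of each gene with its 95% interval from edgeR's quasi-likelihood fit, for G12V against MCF10A on the left and Nutlin-3a against DMSO on the right, with dashed lines at the threshold of 0.5 on either side. All intervals on the left include 0, and on the right that of CTCF ends at -0.0021 while the other 8 include 0.

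Ratios of paralogs and partners within a library do not depend on how libraries are scaled. STAG2 exceeded STAG1 in every library, by 2.33 and 3.02 times per kb in MCF10A, 1.82 and 3.46 times in G12V, 1.96 to 2.77 times after DMSO and 2.29 to 2.57 times after Nutlin-3a. PDS5A exceeded PDS5B by 5.36 to 6.57 times per kb over all 10 libraries. After DMSO the PDS5A to PDS5B ratio was 5.45, 5.37 and 5.36, and after Nutlin-3a it was 6.57, 5.50 and 5.86, so that all Nutlin-3a libraries were above all DMSO libraries. The difference of 0.14 on the log2 scale had p = 0.1 in a two-sided exact permutation test, the smallest that 3 against 3 libraries allow, and 0.6 after adjustment over the 6 ratios tested.

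SMC1A and SMC3, which enter the ring in equal number, had a ratio per kb of transcript of 1.10 ± 0.26 in MCF10A (SD, n = 2), 1.16 ± 0.33 in G12V (SD, n = 2), 1.41 ± 0.18 in DMSO (SD, n = 3) and 1.61 ± 0.23 in Nutlin-3a libraries (SD, n = 3). This ratio depends on the length used, because the transcript of SMC1A is 9.71 kb long with a coding part of 3.70 kb, while that of SMC3 is 5.52 kb long with a coding part of 3.65 kb. Per kb of coding sequence the ratio was 1.92 in MCF10A and 2.79 in Nutlin-3a libraries. Between groups the exact permutation test gave p = 0.667 in the untreated cells, where 2 against 2 libraries allow no less than 0.333, and p = 0.2 in the Nutlin-3a experiment, where the ratio was higher after Nutlin-3a in 3 of 3 pairs, by 0.28, 0.18 and 0.11 on the log2 scale. The PDS5A to PDS5B ratio was also higher in 3 of 3 pairs, and STAG2 to STAG1 in 2 of 3. Within pairs, an exact permutation of signs gave p = 0.25 for SMC1A to SMC3 and for PDS5A to PDS5B, the smallest that 3 pairs allow, and 0.75 for STAG2 to STAG1.

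**Figure D4:**
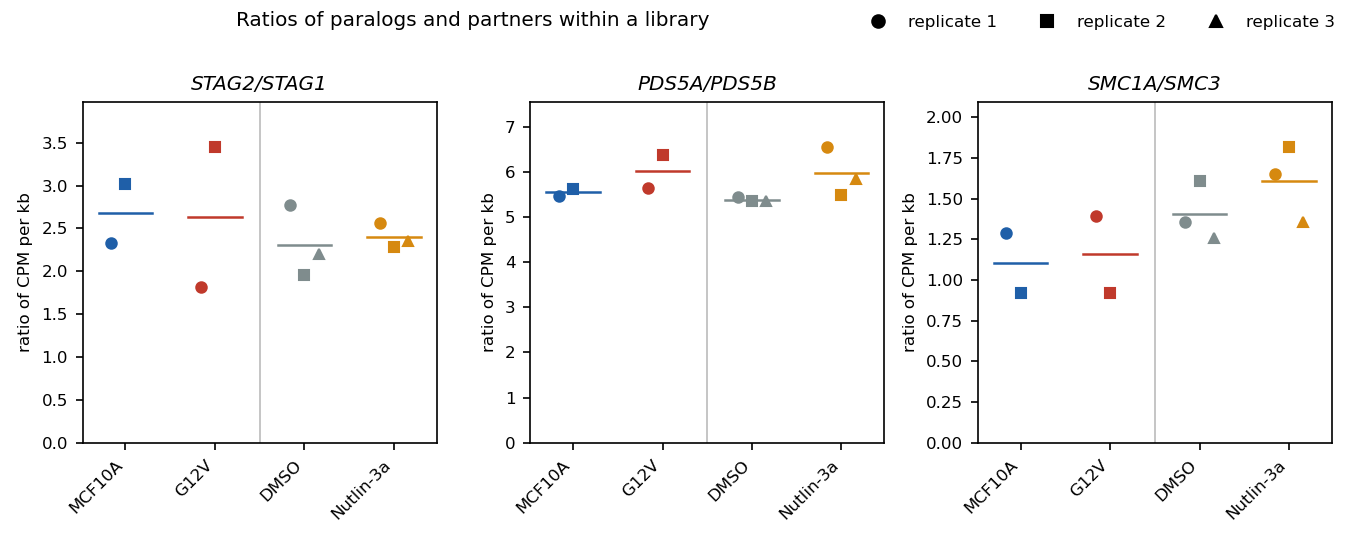
Ratio of CPM per kb of transcript within each library for 3 pairs of genes, with circles, squares and triangles for replicates 1, 2 and 3, a line at each group's mean and axes from 0. STAG2 to STAG1 lies between 1.82 and 3.46, PDS5A to PDS5B between 5.36 and 6.57, and SMC1A to SMC3 between 0.922 and 1.82.

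Many cohesin genes serve dividing cells, so the level of 8 proliferation genes (MKI67, TOP2A, CCNB1, CCNA2, CDK1, MCM2, MCM5 and PCNA) was read in each library, as their mean log2 CPM around the mean of the experiment. In the untreated cells it was 0.41 in MCF10A replicate 1 and in G12V replicate 1, -0.25 in MCF10A replicate 2 and -0.56 in G12V replicate 2. The deviation of SMC1A from its mean was 0.37 in both replicates 1 and -0.39 and -0.35 in the replicates 2, so its spread went with the replicates that had more proliferation RNA. SMC1A was not alone in this. Over these 4 libraries Pearson's r with the proliferation level was 0.95 for SMC1A, 0.94 for STAG1, 0.94 for CTCF and 0.86 for SMC3. It was lowest for STAG2, at -0.62. RAD21 deviated by 0.10 and 0.22 in the MCF10A libraries and by -0.18 and -0.15 in the G12V libraries, which separated the groups and not the replicates. The part of proliferation in these values was not tested.

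In the Nutlin-3a experiment the level of the proliferation genes was 0.01, 0.12 and 0.14 in DMSO replicates 1 to 3 and -0.11, -0.0077 and -0.16 in the Nutlin-3a replicates. CTCF deviated from its mean by -0.01, 0.21 and 0.17 after DMSO and by -0.14, -0.02 and -0.20 after Nutlin-3a. The 6 libraries stood in nearly the same order by both measures, and only DMSO replicates 2 and 3 changed places. Pearson's r with the proliferation level was 0.99 for CTCF, 0.92 for PDS5B and 0.84 for SMC3. It was 0.29 for SMC1A and lowest for NIPBL, at -0.06. Of the 8 proliferation genes 0 were called without the block, 2 (CCNA2 and PCNA, the latter higher) had an unadjusted p under 0.05, and 1, CCNA2, was called lower with it (log2 fold change -0.51, adjusted p = 0.00522 with the block and 0.177 without). Whether the lower CTCF level after Nutlin-3a goes beyond that of the proliferation genes was not tested.

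**Figure D5:**
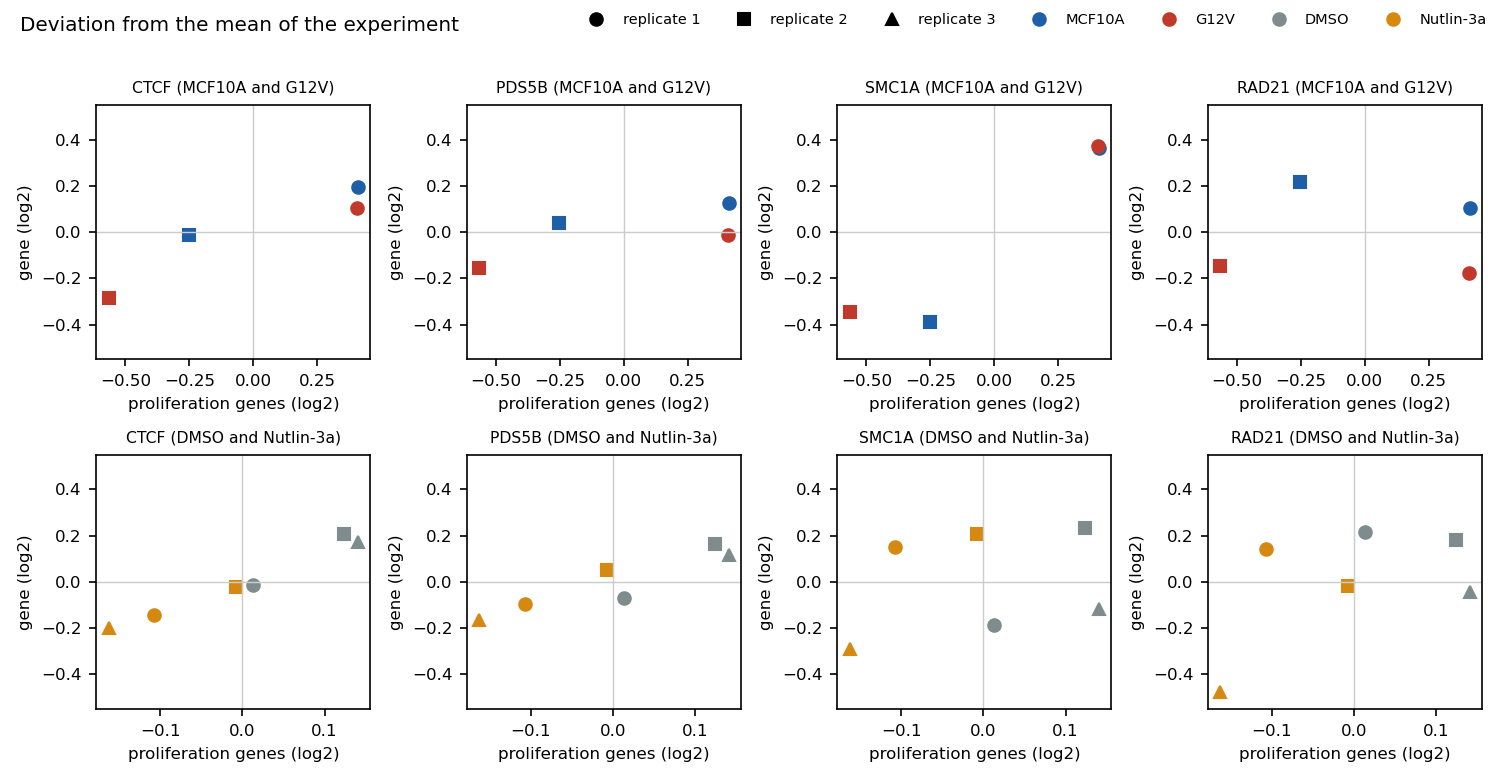
Deviation of log2 CPM from the mean of the experiment for 4 genes (vertical) against the mean deviation of 8 proliferation genes (horizontal), each point 1 library, with untreated cells above and the Nutlin-3a experiment below. In the lower row CTCF runs from -0.20 to 0.21 in nearly the order of the proliferation genes, and in the upper row SMC1A splits replicates 1 at 0.37 from replicates 2 at -0.39 and -0.35.

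The genes with the pattern most like CTCF over the 6 libraries of the Nutlin-3a experiment, by Pearson's r of log2 CPM among 9266 other genes of at least 10 CPM, were ABL1 (0.992), ELOVL7 (0.992), CTPS2 (0.985), NUP50 (0.982) and BAG5 (0.979). These libraries are 3 pairs in 2 treatments and not independent, and 91 genes reached an r of at least 0.9. Within the cohesin system PDS5B (0.945) and SMC3 (0.865) were the most like CTCF. ABL1, a tyrosine kinase gene, had 156, 171 and 171 CPM after DMSO and 148, 155 and 147 CPM after Nutlin-3a, again with DMSO replicate 1 nearest to the Nutlin-3a libraries.

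Genes that act on cohesin were read beside the members. Of 7 genes for its loading, release and acetylation, 0 were called in either comparison, and 1 in each had an unadjusted p under 0.05. In G12V cells this was MAU2, the partner of NIPBL in the loader, at 63.7 and 71.0 CPM in MCF10A and 52.3 and 44.5 CPM in G12V libraries. The log2 fold change of MAU2 was -0.48, short of 0.5, with an adjusted p of 0.18 without the block and 0.028 with it. After Nutlin-3a the gene with an unadjusted p under 0.05 was ESCO2, an acetyltransferase of SMC3 in S phase, with a log2 fold change of -0.38 (adjusted p = 0.9997). WAPL, which releases cohesin from chromatin, had log2 fold changes of 0.15 in G12V cells and -0.12 after Nutlin-3a, and ESCO1 of 0.49 and -0.15.

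Of 5 genes for the mitotic protection and cleavage of cohesin, 0 were called without the block, and 0 in G12V cells and 2 after Nutlin-3a (SGO1 and PLK1) had an unadjusted p under 0.05. With the block ESPL1 was called higher in G12V cells (log2 fold change 0.68, adjusted p = 0.00819), where a pairing is not established. That fit called 4158 of all 14376 tested genes, 2071 of them higher. PLK1, the kinase that removes cohesin from chromosome arms, had 155, 176 and 175 CPM after DMSO and 100.4, 115 and 93.6 CPM after Nutlin-3a, without overlap. Its log2 fold change was -0.71, with an adjusted p of 0.0893 without the block and 5.3e-04 with it, so that only the call and not the size of the difference depended on the pairing. The median of the 5 was -0.39 after Nutlin-3a and 0.15 in G12V cells. SGO1 and SGO2, the shugoshins, had -0.39 and -0.23 after Nutlin-3a, and ESPL1, separase, had -0.47, all above the adjusted threshold without the block. With the block the adjusted p was 0.106 for SGO1, 0.413 for SGO2 and 0.0354 for ESPL1. The log2 fold change of ESPL1 was then -0.49, short of 0.5.

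Of the germline cohesin genes only REC8 had enough reads to test, at 29 to 53 reads in the untreated libraries and 19 to 31 in the others. STAG3 had 1 to 9 reads, SMC1B 2 to 9 and RAD21L1 at most 1 in any library. Of 10 condensin and SMC5/6 genes, 0 were called in either comparison without the block, 0 in G12V cells and 1 after Nutlin-3a had an unadjusted p under 0.05, and the list had medians of 0.0032 in G12V cells and -0.03 after Nutlin-3a. With the block 2 were called in G12V cells, NCAPG2 (log2 fold change 0.53, adjusted p = 0.00912) and NCAPH2 (-0.55, 0.0235). Over all 14376 genes tested in G12V cells the block called 4158. A pairing is not established there. Of 7 genes whose products act with CTCF, 0 were called and 0 had an unadjusted p under 0.05 in either comparison. Among these, YY1 had log2 fold changes of -0.09 in G12V cells and -0.04 after Nutlin-3a, ZNF143 of 0.58 and -0.05, MAZ of -0.43 and -0.06, and LDB1 of -0.40 and 0.24.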

How the data were processed

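Poly(A) RNA-seq of MCF10A and G12V cells (2 libraries each) and of MCF10A cells given DMSO or Nutlin-3a (3 each) was used. Per the labels and the methods, the authors aligned reads with TopHat to hg19, counted them with HTSeq and deposited raw counts per gene, without normalization, in 2 tables. The annotations, the strand setting and the handling of overlapping genes are not given in the sources used here. Per-sample columns left unused numbered 0. Replicates are biological replicates per the labels.

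Each table was fitted alone with edgeR 4.0.16 (R 4.3.3, limma 3.58.1): filterByExpr at its defaults, TMM, the quasi-likelihood F-test and Benjamini-Hochberg adjustment over all genes tested. A gene is called when its adjusted p is below 0.05 and its log2 fold change beyond 0.5 in either direction. CPM use TMM-scaled library sizes. Standard errors and 95% intervals come from the F statistic and its degrees of freedom. Levels per kb use MANE Select lengths from GENCODE on GRCh37. Promoter letters are from RefSeq on GRCh38.p14 and were read for 9 of 10 genes. Those of RAD21, on chromosome 8, were left out. Ratios were compared by two-sided exact permutation tests. Figures used matplotlib 3.10.9 in Python 3.11.15. The fits were tested on simulated data.

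The members and lists were chosen with earlier results of these data known. All 10 members are named, and from the other lists the genes called in either comparison and at most 4 others in list order (MAU2, WAPL, ESCO1, ESCO2; SGO1, SGO2, PLK1, ESPL1; YY1, ZNF143, MAZ, LDB1), with 5 checks of the labels and the 5 genes most like CTCF. Other settings tried were edgeR's exact test, DESeq2 1.42.0, RLE and upper-quartile factors, library totals alone, no filter, more than 1 CPM in 2 libraries, a prior count of 2, the replicate block, an unadjusted p under 0.05 with a fold above 1.3, and each library left out. Coding length for ratios per kb and the paired permutation of signs for ratios were added after the data had been seen. In the Nutlin-3a experiment libraries of the same number correlated in their deviations from the group means at 0.62, 0.60 and 0.64, and others at -0.47 to -0.19, so the numbers pair the libraries.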

Additional observations from a re-analysis of the deposited data

How the results depend on the processing

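The number of members called stayed at 0 under all 14 alternatives for G12V cells and all 16 for Nutlin-3a. In the main fits members reached at most -0.44 (CTCFL) in G12V cells and -0.24 (CTCF) after Nutlin-3a on the log2 scale. With all libraries kept, no other fit brought a member past 0.5. In those fits 0 calls were thus fixed by the fold and not by the tests. With 1 library omitted this did not hold for 2 members in G12V cells. Log2 fold changes then ran from -0.64 to -0.27 for CTCFL and from -0.52 to -0.22 for NIPBL. The number of all genes called did not stay the same. Of 1575 genes in G12V cells, edgeR's exact test gave 2536, the unadjusted threshold 3676, the replicate block 4158, and omitting MCF10A replicate 1 gave 0 (0 to 2129 over the omitted libraries). Of 23 genes after Nutlin-3a, DESeq2 gave 88, the exact test 84, no filter 99, the replicate block 165, the unadjusted threshold 332, and omitted libraries 7 to 11. The causes were not tested. In G12V cells same-numbered libraries correlated at 0.50, which 2 pairs cannot establish as a pairing, and the block called no member there, although of the cohesin regulator and condensin lists it called ESPL1 (log2 fold change 0.68, adjusted p = 0.00819), NCAPG2 (0.53, 0.00912) and NCAPH2 (-0.55, 0.0235). It changed no call of a member in either comparison. Signs turned only where the main log2 difference was at most 0.17 in size, that of CTCF in G12V cells. Values moved by more than this for some members when a library was omitted, as given below. STAG2 after Nutlin-3a turned to -0.0099 and PDS5A to -0.027 with library totals alone, and PDS5A to -0.0030 without a filter. With single libraries omitted, log2 fold changes in G12V cells ran from -0.38 to 0.0080 for CTCF, -0.38 to 0.48 for SMC1A, -0.17 to 0.13 for SMC3 and -0.46 to 0.15 for STAG1. After Nutlin-3a they ran from -0.044 to 0.19 for SMC1A, -0.20 to 0.018 for STAG1, -0.077 to 0.086 for STAG2 and -0.055 to 0.061 for PDS5A. Log2 ratios ran from -0.55 to 0.38 for STAG2 to STAG1 and -0.24 to 0.35 for SMC1A to SMC3 in G12V cells, and from -0.042 to 0.21 for STAG2 to STAG1 after Nutlin-3a. CTCFL was not tested with the filter of 1 CPM. With 1 library left in a group, that library is assumed to vary like the others. With 2 libraries a group, the 95% interval in G12V cells reached beyond 1.5-fold for all but 2 members.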
